A study of Zea mays with 24 samples.

Results

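Heat-stressed seedlings of the maize cytoline cytTC221 were compared with heat-stressed seedlings of the cytoline cytT248, the line that the sample labels write cytTC248. The 8 arrays were chosen by line and treatment alone, 4 per line, and came from a series of 24 arrays that also holds the inbred line TC243 and unstressed seedlings of all 3 lines, with 4 arrays per group. A cytoline is made by repeated backcrossing of a pollen donor to a seed parent, so that it keeps the mitochondria and chloroplasts of the seed parent. Here cytTC221 carries the cytoplasm of TC221, a European Flint line, cytT248 carries that of T248, a Lancaster line, and in both the nucleus was replaced by that of TC243, an Iowa Stiff Stalk line. Seedlings were grown at 26 °C in the light and 20 °C in the dark, with 8 h of dark per day. The heated ones were grown in this way for 20 days and then spent 24 h at 40 °C. Unstressed seedlings were harvested after 21 days at the growth temperatures. Total RNA of leaves and stems at the 3-leaf stage was labelled with Cy3 and hybridised to a custom Agilent array. Each cytoplasm is represented by 1 cytoline, a small part of the seed parent's nuclear genome can remain after backcrossing, and the study's methods describe the harvest of fewer seedlings per line than there are arrays per group. The 4 arrays of a group may therefore not all be separate plants, and p-values measure the spread between these samples only.

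Most organelle proteins are encoded in the nucleus, and the state of mitochondria and chloroplasts feeds back on nuclear transcription, a flow of information called retrograde signaling. In plants it is best known for the alternative oxidase, the respiratory bypass enzyme whose gene is switched on when the mitochondrial electron transport chain is disturbed, and for light-harvesting genes, which respond to the state of the plastid. Heat in addition induces heat stress transcription factors and, through them, the heat shock proteins, a set of chaperones that bind and refold damaged proteins.

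Levels below are log2 intensities after background correction and quantile normalization, so a difference of 1 is a 2-fold change, and every difference is heated cytTC221 minus heated cytT248 unless another pair is named. Of the spots on each array, 36.9% to 43.1% were well above background in heated cytTC221 and 37.6% to 41.3% in heated cytT248, no spot was saturated, and the median standard deviation between replicates was 0.12 in heated cytTC221 and 0.10 in heated cytT248. The lowest correlation between arrays of a line was 0.986 in heated cytTC221 and 0.991 in heated cytT248, and the highest between arrays of different heated lines was 0.968. The first principal component of the 8 arrays held 68.6% of their variance and separated the lines. Genes that mark cell types were tested only if a probe was well above background on every array of a heated line. This left 3 of 4 mesophyll, 4 of 4 bundle sheath, 10 of 27 dividing or stem tissue and 1 of 7 epidermal markers. The summed intensity of 3 mesophyll markers was 20270 to 23310 in heated cytTC221 and 21300 to 22700 in heated cytT248, and that of 4 bundle sheath markers was 2921 to 4121 in heated cytTC221 and 3418 to 3599 in heated cytT248. Over 10 histone, cyclin and other markers of dividing or stem tissue the sum was 5685 to 5768 in heated cytTC221 and 5609 to 5993 in heated cytT248. The only epidermal marker tested was at 380 to 462 in heated cytTC221 and 309 to 330 in heated cytT248. In such whole-tissue RNA, fewer cells of a type and less RNA per cell cannot be told apart. On the 4 slides that held the heated lines, cytTC221 always lay at position 2 or 4 and cytT248 at position 1 or 3, so line and position cannot be told apart either.

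The heated lines differed at a large share of genes, and the larger differences were mostly lower levels in cytTC221. Of 39400 genes with a probe above background in at least 1 heated line, 17549 (44.5%) were differentially expressed at an adjusted p below 0.01, with 8201 (20.8%) higher and 9348 (23.7%) lower in heated cytTC221. Most of these differences were small, 61.9% of them being under 1.5-fold. Genes that differed by over 2-fold numbered 1927 (4.89%), of which 505 (1.28%) were higher and 1422 (3.61%) lower, so that 73.8% of them were lower in heated cytTC221. The arrays of the lines did not overlap for 1901 of these 1927 genes, and for 1916 the sign was the same on all 4 slides. Both counts largely follow from choosing the genes on these same arrays, as 16453 of all 17549 calls did not overlap either. Beyond 4-fold, 65 genes were higher and 87 lower, and beyond 8-fold 12 and 14. The balance of the calls over all genes depended on the scaling, as each array set to its 75th percentile gave 4754 higher and 12332 lower, and the deposited normalized values gave 10357 higher and 7642 lower. Under these 2 settings 84.5% and 63.5% of the genes over 2-fold were lower in heated cytTC221.

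Over the genes tested, the lines were much closer without heat. These genes were kept by their detection in a heated line, so genes detected only in unstressed seedlings are left out. Genes that were near background without heat could show little difference there. Unstressed cytTC221 and unstressed cytT248 differed at 3905 of the same genes (9.91%), 2029 higher and 1876 lower in cytTC221, and the median size of the difference over all genes was 0.28 with heat and 0.11 without. Over 2-fold, the unstressed lines had 517 genes higher and 146 lower in cytTC221, the opposite balance to that with heat. For 13804 genes (35%) the difference between the lines itself changed with heat, in a test of the interaction. Of the 1927 genes over 2-fold with heat, 1504 were not called without it and 1307 had an unstressed difference under 1.2-fold. Differences present in both conditions were more frequent among the higher genes. Of the 505 higher genes, 176 (34.9%) were also higher in unstressed cytTC221 and 19 were lower there, whereas of the 1422 lower genes 114 (8.02%) were lower without heat and 114 were higher. Over 2-fold in both conditions and in the same direction were 153 genes, 81 higher and 72 lower in cytTC221.

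**Figure D1:**
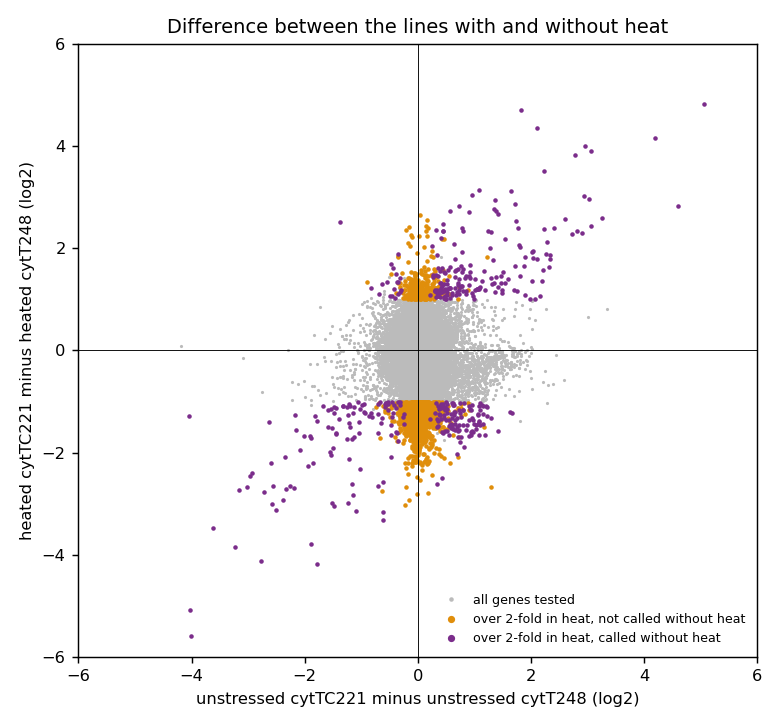
Each point is 1 of 39400 genes, with the log2 difference of unstressed cytTC221 minus unstressed cytT248 across and that of heated cytTC221 minus heated cytT248 upward; orange marks genes over 2-fold with heat and not called without it, and purple those called in both. The orange points (1504 genes) lie along the vertical axis, mostly below 0, and the purple points spread along both diagonals.

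The genes that were lower in heated cytTC221 were mostly genes that heat raised in TC243. The response of TC243, heated minus unstressed, shares no array with the comparison of the cytolines. Of the 1422 genes over 2-fold lower, 1213 (85.3%) were raised by heat in TC243 and 75 (5.27%) lowered, against 47.7% and 32.5% of all genes tested. Their median level was 7.47 in heated cytTC221, against 8.93 in heated cytT248 and 9.25 in heated TC243, while the unstressed medians were 6.95 in cytTC221, 6.88 in cytT248 and 7.01 in TC243. The 4 heated cytTC221 arrays had medians of 7.56, 7.40, 7.43 and 7.53 over these genes, against 8.97, 8.88, 8.87 and 8.98 on the heated cytT248 arrays. The gap between the heated cytolines follows from the choice of the genes. The levels in TC243 and in unstressed seedlings took no part in that choice. Beside them, the set stood little above its unstressed level in heated cytTC221, and near that of heated TC243 in heated cytT248. The heated cytoline levels in these comparisons did choose the genes, so both positions follow in part from the choice.

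The genes that were higher in heated cytTC221 included more that heat lowered in TC243, 264 of 505 (52.3%), with 136 (26.9%) raised. Their median level was 9.04 in heated cytTC221, against 7.63 in heated cytT248 and 7.79 in heated TC243, and without heat it was 8.72 in cytTC221, 8.14 in cytT248 and 8.27 in TC243. By array it was 8.96, 9.07, 9.14 and 8.98 in heated cytTC221, against 7.64, 7.65, 7.65 and 7.64 in heated cytT248. This gap between the heated cytolines again follows from the choice of the genes. Heated TC243 was nearer to heated cytT248 than to heated cytTC221 for 1328 of the lower genes (93.4%) and 447 of the higher ones (88.5%). Over the whole array, 37.2% of the genes raised by heat in TC243 were lower in heated cytTC221 and 14.1% higher, whereas of those lowered by heat in TC243, 34.1% were higher and 9.89% lower.

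**Figure D2:**
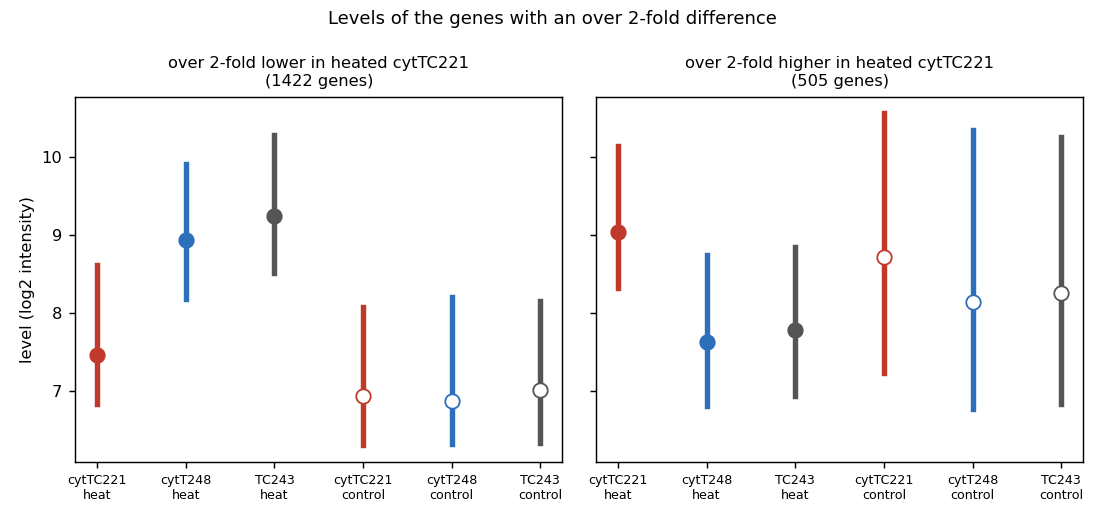
Median level (point) and the range from the lower to the upper quartile of the genes (bar), in log2 intensity, of the 1422 genes over 2-fold lower and the 505 over 2-fold higher in heated cytTC221, in the heated lines (filled) and the unstressed lines (open). For the lower genes heated cytTC221 (7.47) stands apart from heated cytT248 (8.93) and heated TC243 (9.25), and for the higher genes it is again the line apart (9.04 against 7.63 and 7.79). The gap between the heated cytolines follows from the choice of the genes.

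The direction also differed between classes of annotation. The array names its genes by IDs of an older maize annotation, and 12443 of the genes tested matched a gene of the current RefSeq annotation (assembly NAM-5.0). Of the matched genes, 33.4% were higher and 14.1% lower in heated cytTC221, whereas of the 26957 without a match 15% were higher and 28.2% lower. Over 2-fold, matched genes were higher 204 times and lower 118 times, and unmatched genes higher 301 times and lower 1304 times, so that matched genes made up 40.4% of the higher and 8.3% of the lower set. The contrast was present in each of 5 classes of brightness, with 39.6% of matched and 13.4% of unmatched genes higher in the dimmest class, and 23.6% and 14.8% in the brightest. For lower calls the shares were 10.3% and 31.6% in the dimmest class, but 17.3% and 19.4% in the brightest, where the contrast was small. Over 2-fold higher were 0.59% of matched and 0.552% of unmatched genes in the dimmest class, nearly the same share. Among genes raised by heat in TC243, 43.2% of those without a match were lower in heated cytTC221, against 21.1% of those with one. The median difference was 0.11 for matched and −0.11 for unmatched genes, and 0.00 and −0.25 after scaling to the 75th percentile, so its size in matched genes depended on the scaling, and the matched median was above the unmatched one under both. The 1590 genes with a specific gene name in RefSeq, from which the gene lists below were drawn, were higher in 29.6% of cases and lower in 17.8%.

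**Figure D3:**
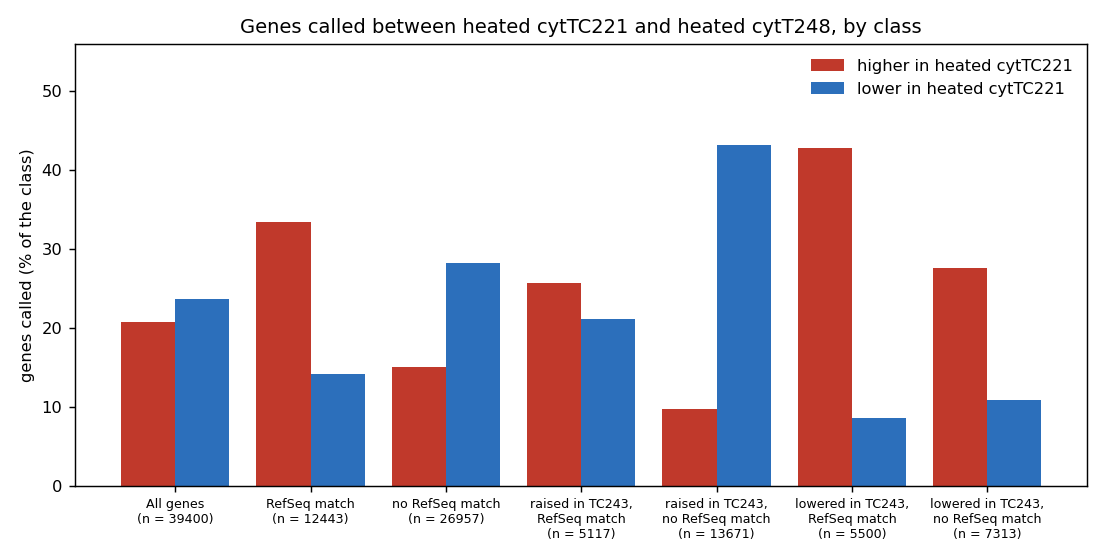
Share of genes called higher (red) and lower (blue) in heated cytTC221, in percent of each class, for all genes tested, for genes with and without a RefSeq match, and for these split by the response of TC243 to heat. Unmatched genes raised by heat in TC243 have the most lower calls (43.2%), and matched genes lowered by heat in TC243 the most higher calls (42.8%).

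Chaperones showed no shared direction in heated cytTC221, as the larger ones held both higher and lower genes and the small heat shock proteins no higher one. None of the 6 small heat shock proteins, which hold unfolded proteins in a state fit for refolding, was higher, and 2 were lower, with a median difference of −0.32, all 6 having been raised by heat in TC243. The transcript of hsp18f was at 9.50, 9.57, 9.43 and 9.38 in heated cytTC221, against 10.19, 10.24, 10.21 and 10.29 in heated cytT248, a difference of −0.76 ± 0.06 (adjusted p = 2.77e-10). For hsp18c the levels were 14.19, 14.35, 14.32 and 14.18 in heated cytTC221, against 14.67, 14.72, 14.75 and 14.58 in heated cytT248, 1.34-fold lower in cytTC221. Neither gene was called between the unstressed lines. The Hsp101 gene, encoding the disaggregase needed for acquired thermotolerance, was at 12.98, 12.80, 13.08 and 12.98 in heated cytTC221, against 13.48, 13.53, 13.59 and 13.43 in heated cytT248 (−0.55 ± 0.07, adjusted p = 9.87e-07). Its unstressed transcript was not well above background in either line, so with heat it stood far above background in both lines and at a lower level in cytTC221.

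Of the 12 larger chaperones in all, 4 were higher and 3 lower, with a median of 0.11. The cytosolic chaperone HSP90-1 was at 14.34, 14.21, 14.25 and 14.06 in heated cytTC221, against 13.78, 13.42, 13.75 and 13.75 in heated cytT248, a difference of 0.54 ± 0.08, and without heat it had the opposite sign (−0.69). CHL-CPN10, the plastid co-chaperonin that caps the folding chamber, was at 11.44, 11.61, 11.60 and 11.46 in heated cytTC221, against 10.67, 10.82, 10.81 and 10.79 in heated cytT248 (0.75 ± 0.07), and was lower in cytTC221 without heat (−0.54). In both genes the sign of the difference between the lines turned with heat. Among 8 heat stress transcription factors, which bind the promoters of chaperone genes, 3 were lower and 1 higher. Hsf26 had the widest gap, with 7.32, 7.19, 7.39 and 7.22 in heated cytTC221, against 8.18, 8.35, 8.37 and 8.13 in heated cytT248 (−0.98 ± 0.07, adjusted p = 8.88e-11), Hsf05 differed by −0.32 ± 0.04, and Hsf03 by −0.24 ± 0.05, the last at an adjusted p of 0.0157 in a fit of the 8 heated arrays alone and 0.0186 with the replicate number as a block there. The higher one, Hsf17, differed by 0.21 ± 0.05, at an adjusted p of 0.017 with the block, and its difference was 0.04, not called, when arrays were set to their 75th percentile.

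Nuclear genes of the mitochondrial membranes were mostly higher in heated cytTC221, led by the alternative oxidase, which passes electrons from ubiquinol to oxygen without pumping protons. The Aox transcript was at 12.71, 12.89, 12.90 and 12.66 in heated cytTC221, against 11.77, 11.72, 11.88 and 11.77 in heated cytT248, a 2.01-fold difference (1.01 ± 0.08, adjusted p = 2.96e-10). Unstressed levels were 7.79 in cytTC221 and 7.65 in cytT248, and heated TC243 stood at 11.90. All heated lines thus stood far above the unstressed ones, and the gap between the cytolines widened by 0.87 with heat. A second gene, aox3, differed by 0.31 at an adjusted p above the threshold. Unlike Aox, aox3 was called between the unstressed lines, lower in cytTC221. For both genes the difference between the lines changed with heat. Of 11 genes for mitochondrial carriers, porins, prohibitins and respiratory subunits, 8 were higher and 1 lower, with a median of 0.46. The median was 0.08 over all genes with a gene name, and −0.03 over all genes. The adenine nucleotide translocator ANT1, which exchanges ADP for ATP across the inner membrane, was at 10.51, 10.56, 10.56 and 10.69 in heated cytTC221, against 9.81, 9.88, 9.88 and 9.82 in heated cytT248 (0.74 ± 0.07). The prohibitins phb2, phb1 and phb3, scaffolds of the inner membrane, differed by 0.67 ± 0.08, 0.56 ± 0.08 and 0.51 ± 0.06. Of the 3, only phb3 was also called higher in unstressed cytTC221 (0.29), and the call of phb1 was lost when arrays were scaled to the 75th percentile (adjusted p = 0.0156). The lower gene of this list was sdh1, a subunit of succinate dehydrogenase, with a difference of −0.41.

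Transcripts of genes encoded in the mitochondrion itself differed little between the heated lines. Of 9 such genes tested 2 were higher and 7 not called, with a median difference of −0.08 that was 0.02 after centring on the median, and without heat 4 of the 9 were called and the median was 0.46. The gene nad5, encoding a subunit of complex I, was between 8.91 and 9.01 in heated cytTC221, against 8.29, 8.45, 8.35 and 8.78 in heated cytT248 (0.51 ± 0.08), and ccmb, encoding a cytochrome c maturation factor, differed by 0.31 ± 0.07, at an adjusted p of 0.0198 with the replicate number as a block and 0.761 after scaling to the 75th percentile. For nad4 and rps7 the heated lines overlapped, with differences of 0.04 ± 0.08 and −0.14 ± 0.12, while unstressed cytTC221 was higher by 0.47 and 0.57. Of 7 mitochondrial open reading frames without an assigned function, orf99-d was lower, at 14.42, 14.19, 14.08 and 14.48 in heated cytTC221, against 14.88, 14.85, 14.76 and 14.93 in heated cytT248 (−0.57 ± 0.10), and the other 6 were not called.

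Photosystem and light-harvesting genes were lower or not called. Of 11 genes none was higher and 7 were lower in heated cytTC221, with a median of −0.47, and 9 of the 11 were lowered by heat in TC243. By comparison, 34.1% of all genes lowered by heat in TC243 were higher in heated cytTC221 and 9.89% lower. The antenna gene lhcb6 was at 9.36, 9.68, 9.66 and 9.46 in heated cytTC221, against 10.01, 10.46, 10.34 and 10.03 in heated cytT248 (−0.67 ± 0.09, adjusted p = 2.94e-06), and psaN, a lumenal subunit of photosystem I, was at 14.12, 14.18, 14.16 and 14.05 in heated cytTC221, against 14.69, 15.02, 14.81 and 14.64 in heated cytT248 (−0.66 ± 0.08). Neither was called between the unstressed lines, whose means were 17.30 in cytTC221 and 17.48 in cytT248 for lhcb6. The chlorophyll-binding genes cab-m1 and cp29 differed by −0.61 ± 0.09 and −0.58 ± 0.12, the second with a low array in cytTC221 and with an adjusted p of 0.0139 on the 8 heated arrays alone and 0.0216 with the replicate block there. Of the 3 mesophyll markers, pep1, the PEP carboxylase of the C4 cycle, was lower by 0.64, and of the 4 bundle sheath markers ME1 was lower by 0.28 and 1 of the rbcS genes higher by 0.53. The part of cell type proportions in these differences was not tested.

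Of 16 C4 and Calvin cycle genes 4 were higher and 5 lower, with a median of −0.29. The 2 genes tested of Rubisco activase, the heat-sensitive chaperone that frees Rubisco of inhibitory sugar phosphates, were lower, rca3 being at 10.06, 9.44, 9.43 and 9.84 in heated cytTC221, against 10.84, 10.42, 10.59 and 10.83 in heated cytT248 (−0.98 ± 0.15), and rca1 at 10.28, 10.06, 10.22 and 10.16 in heated cytTC221, against 11.08, 11.03, 10.98 and 10.85 in heated cytT248 (−0.80 ± 0.10). The 2 genes stood on opposite sides of their unstressed levels, as rca3 was above its unstressed means of 7.43 in cytTC221 and 7.76 in cytT248, and rca1 far below its own of 15.96 and 16.26, yet both stood lower in heated cytTC221. Of 11 genes of chlorophyll and carotenoid synthesis 4 were higher and none lower. PSY1, the phytoene synthase that opens the carotenoid pathway, was at 9.99, 9.92, 10.10 and 10.05 in heated cytTC221, against 9.30, 9.34, 9.39 and 9.19 in heated cytT248 (0.71 ± 0.08), and was lower in cytTC221 without heat (−0.51). The plastid isoprenoid gene dxs1 was higher by 0.66 ± 0.10. Under 75th percentile scaling the list had 2 higher and 1 lower genes.

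**Figure D4:**
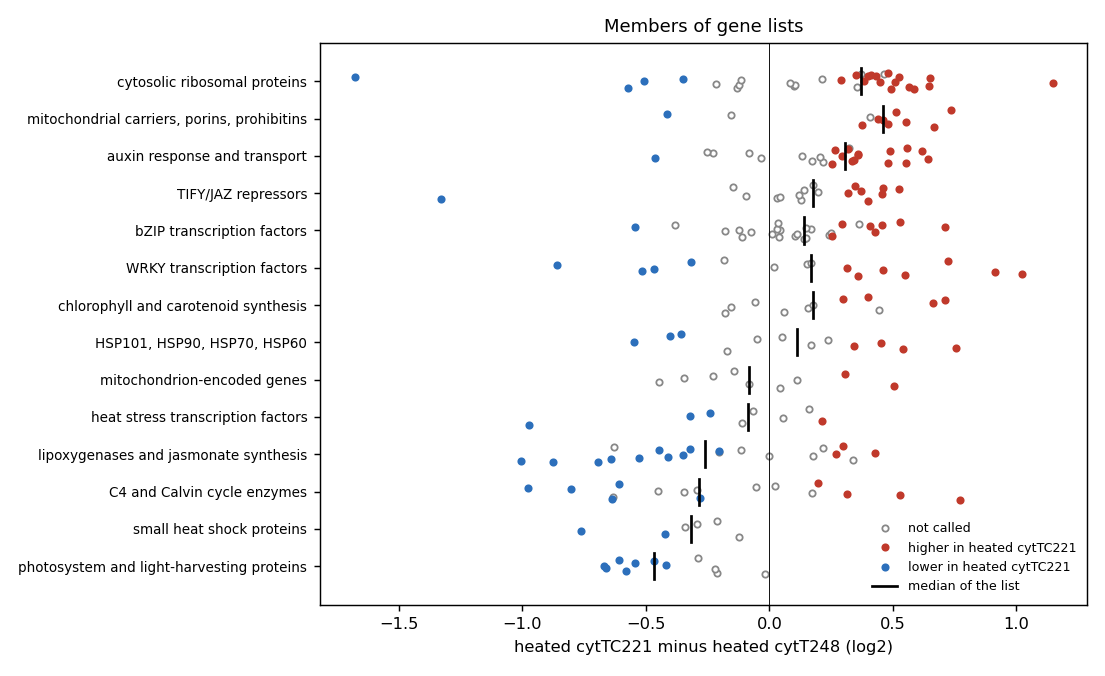
Log2 difference of heated cytTC221 minus heated cytT248 for each measured member of 14 gene lists, with called members in red (higher) or blue (lower), members not called open, and the median of each list as a black bar. Cytosolic ribosomal proteins and mitochondrial carriers lie mostly to the right (medians 0.37 and 0.46), and photosystem genes to the left (median −0.47).

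Cytosolic ribosomal protein genes were more often higher, 16 of 31 against 4 lower, with a median of 0.37 and with no scaling that changed the direction. The stalk protein gene rpp2a-4 was at 11.96, 12.13, 12.24 and 11.98 in heated cytTC221, against 10.94, 10.84, 11.08 and 10.87 in heated cytT248, a 2.21-fold difference, and was not called without heat (−0.02). Of the small subunit, rps21b and rps4 differed by 0.65 ± 0.06 and 0.65 ± 0.06. Of the 4 lower genes rpl19 (GRMZM2G171444) had the widest gap, at 11.17, 10.83, 11.12 and 11.22 in heated cytTC221, against 12.75, 12.76, 12.76 and 12.79 in heated cytT248 (−1.68 ± 0.08), which was also lower in unstressed cytTC221 (−2.01). Heated TC243, at 10.59, was on the side of cytTC221 for this gene. The list was taken by gene name and holds 1 plastid protein gene, hcf60, and near-identical copies of ribosomal genes can bind each other's probes.

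Genes of the lipoxygenase and jasmonate synthesis list were more often lower than higher in heated cytTC221. The list was taken by gene name, and not all of its members make jasmonate. Of its 20 genes, 10 were lower and 3 higher in heated cytTC221, with a median of −0.26. The volatile-forming lipoxygenase gene lox10 was at 12.06, 12.33, 12.23 and 12.31 in heated cytTC221, against 13.08, 13.40, 13.36 and 13.12 in heated cytT248 (−1.01 ± 0.14), and was not called without heat (0.01). Lower too were lox11 (−0.88 ± 0.21), opr2 (−0.69 ± 0.07) and lox6 (−0.64 ± 0.13), although lox11 and lox6 were not called when no probe was filtered for brightness (adjusted p = 0.0157 and 0.058). Of 17 TIFY genes, which include the repressors of jasmonate response, 7 were higher and 1 lower. The lower one, TIFY28, was at 9.28, 9.15, 9.07 and 9.19 in heated cytTC221, against 10.42, 10.47, 10.48 and 10.63 in heated cytT248 (−1.33 ± 0.08), and of the higher ones TIFY17 differed by 0.53 ± 0.13, a call that was lost under 75th percentile scaling (0.33, adjusted p = 0.0435), with its brightest probe alone (adjusted p = 0.0816), with the replicate block (0.0168) and without cytTC221 array 3 (0.011).

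The named gene with the widest gap among the lower ones was mbd111 (GRMZM2G025095), for a protein with a methyl-CpG-binding domain, whose 5 probes gave 6.12, 6.05, 6.09 and 6.04 in heated cytTC221, against 10.26, 10.32, 10.30 and 10.18 in heated cytT248. In heated cytTC221 it was not well above background, so that it was at least 17.1-fold lower (adjusted p = 3.32e-23). Fold bounds of this kind set the mean of the brighter line against the signal of the other. On each array that signal was first raised to the dimmest one well above background, where it lay below it. Some undetected signals lay above this floor, such as the pentatricopeptide repeat gene ppr2, at 6.48 to 6.59 in heated cytT248. The bounds are therefore approximate. Without heat it was lower too (−1.78), and in TC243 it was not well above background with heat, so cytT248 was the line that stood apart. The mir2 gene, of the cysteine proteinases tied to insect resistance in maize, was at 11.50, 10.73, 11.74 and 11.55 in heated cytTC221, against 14.23, 14.44, 14.49 and 14.32 in heated cytT248, 7.94-fold lower (−2.99 ± 0.14). Unstressed cytTC221 had less of it as well (−1.23), and heated TC243, at 14.46, was level with cytT248. For geb1, a glucan endo-beta-glucosidase of the pathogenesis-related proteins, levels were 6.92, 7.41, 7.22 and 7.03 in heated cytTC221, against 9.14, 9.57, 9.54 and 9.35 in heated cytT248 (−2.26 ± 0.10), and the gap without heat was nearly as wide (−1.94).

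Of the chitinase genes, whose enzymes cut the chitin of fungal cell walls, chn1 and chiB were lower in heated cytTC221 as well. The chn1 transcript was at 10.29, 10.28, 10.47 and 10.25 in heated cytTC221, against 11.69, 11.68, 11.59 and 11.57 in heated cytT248 (−1.31 ± 0.07), and chiB was not well above background on any heated cytTC221 array and at least 2.91-fold lower there. The metal transporter gene ysl11, of the family that carries iron bound to nicotianamine, was at 7.14, 7.32, 7.29 and 7.20 in heated cytTC221, against 8.79, 9.02, 8.94 and 8.92 in heated cytT248 (−1.68 ± 0.07). It was not well above background in the unstressed lines and reached 9.95 in heated TC243. The same order held for cyclin4, at 7.79, 7.77, 7.88 and 7.77 in heated cytTC221, against 9.08, 9.20, 9.13 and 9.28 in heated cytT248 and a mean of 10.07 in heated TC243 (−1.37 ± 0.05). Lower by over 2-fold were also 2 gene IDs named CPK39, a calcium-dependent protein kinase (−1.23 ± 0.22 and −1.23 ± 0.07), psiP (−1.23 ± 0.06) and dhar4, a dehydroascorbate reductase that recycles ascorbate (−1.14 ± 0.08).

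**Figure D5:**
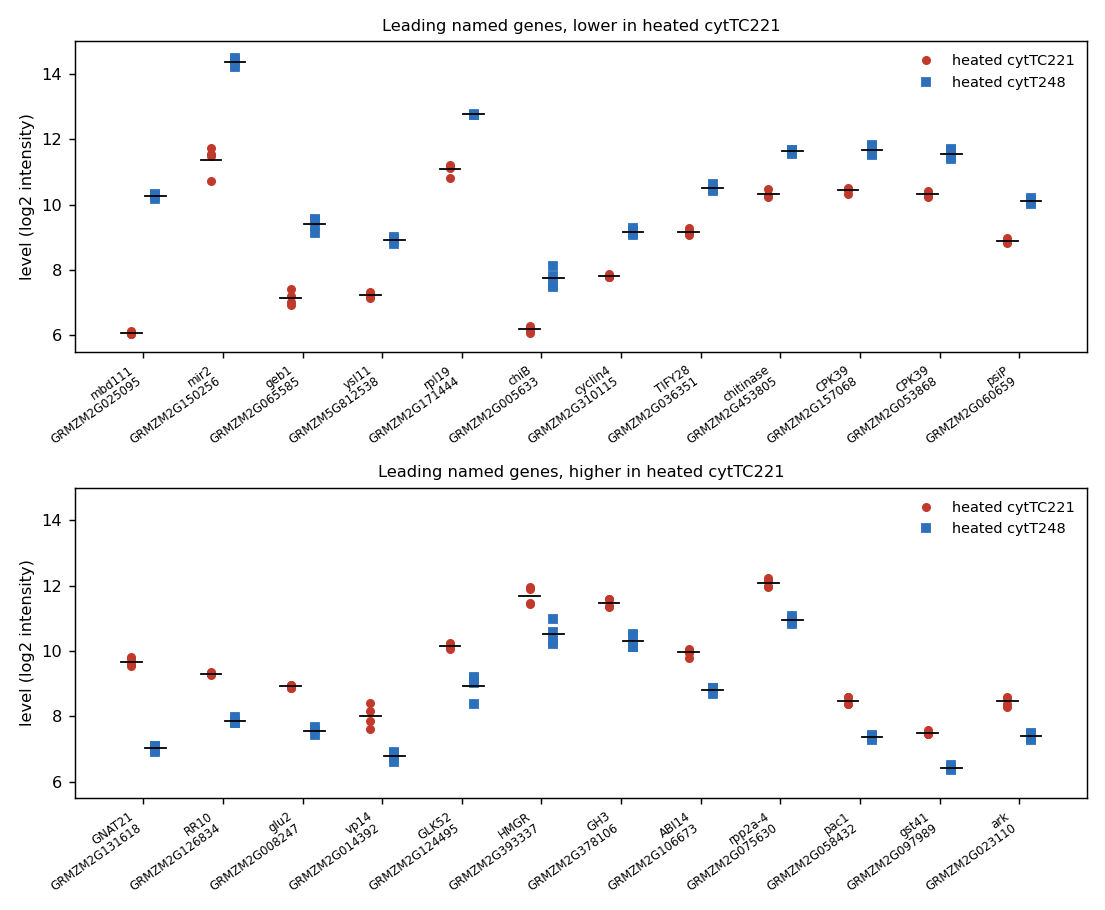
Level of the leading named genes on each heated array, in log2 intensity, with cytTC221 as circles, cytT248 as squares and the mean of each as a line, for 12 genes lower (top) and 12 genes higher (bottom) in heated cytTC221. Genes were chosen so that the 4 arrays of each line did not overlap with those of the other, and mbd111 (at most 6.12 against at least 10.18) has the widest gap.

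Among the higher genes GNAT21 (GRMZM2G131618), of the GCN5-related acetyltransferases, led the named ones. It was at 9.54, 9.75, 9.81 and 9.59 in heated cytTC221, against 6.90, 7.10, 7.09 and 6.96 in heated cytT248, 6.31-fold higher (adjusted p = 3.09e-16), and the unstressed difference of 0.04 was not called. Heated TC243 had 6.91, so that of the heated lines cytTC221 alone stood above its unstressed mean. The cytokinin response regulator RR10 was at 9.26, 9.31, 9.35 and 9.29 in heated cytTC221, against 7.78, 7.80, 7.97 and 7.85 in heated cytT248 (1.45 ± 0.07), and its gap was the same without heat (1.47). For glu2, a beta-glucosidase, levels were 8.96, 8.88, 8.87 and 8.97 in heated cytTC221, against 7.59, 7.57, 7.42 and 7.67 in heated cytT248 (1.36 ± 0.11), all far below the unstressed means of 14.07 in cytTC221 and 13.71 in cytT248.

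The leading higher genes also held 2 genes of hormone metabolism. The gene vp14, encoding the dioxygenase that makes the precursor of abscisic acid, was at 8.16, 7.86, 7.61 and 8.41 in heated cytTC221, against 6.89, 6.72, 6.59 and 6.92 in heated cytT248 (1.23 ± 0.16), where only 2 of 4 arrays were well above background. GH3, of the family that joins auxin or jasmonate to amino acids, was at 11.39, 11.60, 11.58 and 11.33 in heated cytTC221, against 10.12, 10.46, 10.52 and 10.13 in heated cytT248 (1.16 ± 0.11), and was raised by heat in both lines over unstressed means of 7.10 in cytTC221 and 7.18 in cytT248. Of 24 genes of auxin response and transport 14 were higher and 1 lower, with a median of 0.31, although scaling to the 75th percentile left 5 higher and 4 lower. Examples were AUX15 (0.64 ± 0.06), which had the opposite sign without heat (−0.27), and Yucca7, of the enzymes that make auxin (0.62 ± 0.08), whose call was lost under that scaling (adjusted p = 0.0106). Of 10 dehydrin, LEA and abscisic acid genes 4 were higher and none lower.

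Of the other leading higher genes, HMGR, the enzyme that commits carbon to the mevalonate pathway of sterols, was at 11.43, 11.91, 11.96 and 11.47 in heated cytTC221, against 10.30, 10.98, 10.58 and 10.21 in heated cytT248 (1.18 ± 0.14). The second array of each line was on the high side for this gene. Transcription factor genes among them were GLK52 (1.23 ± 0.12), ABI14 (1.15 ± 0.07), which was also higher without heat (0.69), and WRKY29, at 9.03, 9.34, 9.25 and 9.11 in heated cytTC221, against 7.98, 8.19, 8.35 and 8.12 in heated cytT248 (1.03 ± 0.08). Of 15 WRKY genes 7 were higher and 4 lower, a balance that turned to 3 and 5 under 75th percentile scaling. The anthocyanin regulator pac1 differed by 1.11 ± 0.07, ark by 1.07 ± 0.09, and of 16 glutathione S-transferases, which conjugate toxic compounds, gst41 and gst42 differed by 1.07 ± 0.07 and 1.04 ± 0.12, with 5 of the family higher and 3 lower. Among 15 antioxidant genes 4 were higher and 3 lower, the highest difference being that of sod3, the mitochondrial manganese superoxide dismutase, at 10.75, 11.01, 10.82 and 10.77 in heated cytTC221, against 9.85, 10.02, 9.93 and 9.98 in heated cytT248 (0.89 ± 0.08).

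Sucrose genes split, as IVR1, an invertase that cleaves sucrose, was lower (−0.80 ± 0.08) and sh1, a sucrose synthase, higher (0.53 ± 0.06), with 3 higher and 3 lower of 16. The other lists held both directions or few calls. There were 7 higher and 1 lower of 27 bZIP factors, 4 and 3 of 16 NAC factors, 2 and 0 of 6 DREB factors, 3 and 1 of 16 ER chaperone genes, 0 and 2 of 3 clock genes, 1 and 0 of 4 ethylene genes, 5 and 1 of 15 flavonoid and lignin genes, and 1 and 1 of 5 benzoxazinoid genes. Likewise 3 higher and 2 lower were found of 15 nitrogen assimilation genes, 5 and 3 of 15 aquaporins, 4 and 3 of 16 histone and cell cycle genes, 8 and 3 of 19 cell wall genes, 1 and 1 of 8 pentatricopeptide repeat genes, 0 and 2 of 9 sigma factor and organelle polymerase genes, and 1 and 0 of 4 mitochondrial chaperonin and protease genes. Under 75th percentile scaling the balance turned for NAC factors (3 higher and 5 lower), glutathione S-transferases (4 and 5) and nitrogen assimilation (2 and 4), while sucrose genes were 2 higher and 6 lower and pentatricopeptide repeat genes 0 and 2. The higher calls then no longer outnumbered the lower ones for flavonoid and lignin genes (3 and 3), cell wall genes (5 and 5), aquaporins, histone and cell cycle genes and antioxidant genes (3 and 3 each), and ER chaperone and mitochondrial chaperonin genes (1 and 1 each). With the replicate block on the 8 heated arrays, ER chaperone genes were 1 higher and 2 lower, and clock and sigma factor genes 0 and 1 each. All these counts stand beside 29.6% higher and 17.8% lower of all named genes.

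Some genes were detected in only 1 of the heated lines. Well above background on every array of heated cytTC221 and on none of heated cytT248 were 352 genes, of which 330 were called and 75 were at least 2-fold higher by their bound. The reverse pattern was seen for 601 genes, of which 569 were called and 70 were at least 2-fold lower. The high share of calls in both sets follows from how they were picked, and 44.5% of all genes tested were called. In the first set the named genes were near the detection limit, CNR09, MYB34, ts2 and BIF4 being at least 1.68-, 1.58-, 1.55- and 1.5-fold higher, and heat had left them far below unstressed means of 9.19, 9.55, 10.53 and 10.21 in cytTC221. The calls of ts2 and BIF4 were lost under 75th percentile scaling (adjusted p = 0.0261 and 0.0446). In the second set orc2 and MYBR47 were at least 1.57- and 1.49-fold lower. The extremes of all genes, picked here after their values were seen, had no gene name. GRMZM2G138809 was at least 43.5-fold lower in heated cytTC221, with levels of 5.93, 6.09, 5.93 and 6.09 in heated cytTC221, against 11.55, 11.56, 11.64 and 11.66 in heated cytT248. In the other direction, GRMZM2G342226 was at least 23.4-fold higher, with 10.70, 10.57, 10.70 and 10.68 in heated cytTC221, against 5.86, 5.85, 5.93 and 5.76 in heated cytT248. Their differences without heat, −4.00 and 5.05, had the same sign.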

How the data were processed

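RNA of 24 samples was hybridised to 1-colour Agilent arrays with 133671 probes, and the deposited intensity of each spot, the median signal with its local background, came from Agilent Feature Extraction 11 according to the submitters' processing notes. The authors' normalized log2 values, also deposited, follow the median signal without background correction and look scaled separately within each line, so they served only as an alternative. Background was corrected with normexp (offset 50), log2 values were quantile normalized over 24 arrays, spots flagged as outliers were dropped (47 genes then lacked a value on some array, and the fit ran without it), and spots of a probe were averaged. Probes were kept if well above background on all 4 arrays of a heated line (52745 probes), and their mean was taken per gene ID, giving 31734 genes with 1 probe and 7666 with more. For 190 genes the probes differed in sign.

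All 6 groups were fitted with limma 3.58.1 in R 4.3.3, with Benjamini-Hochberg adjustment over all genes and a threshold of 0.01. The fit was tested on simulated data, in which arrays varied independently. That test therefore does not cover deviations shared by arrays of a slide. The number of arrays limits the precision. Heated replicates of both lines with the same number shared a slide, and their deviations from the group means correlated at 0.138 to 0.278, against at most 0.0937 between slides, so the numbers pair the samples.

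Named genes were, per direction, the 12 with the highest absolute difference among called genes with a RefSeq name whose lines did not overlap, whose sign was the same on all 4 slides and whose probes agreed in sign, plus up to 4 per gene list, and up to 4 per direction detected in 1 heated line only. Members and lists were chosen with earlier results of these data known. Of 107027 gene IDs on the array, 18817 matched RefSeq and 2549 had a name. Alternatives covered scaling, background, filter, probe choice, blocks and single arrays. Whether probes also bind near-identical genes was not tested, and lists for chloroplast-encoded genes, respiratory complexes, organellar ribosomes, tRNA synthetases and the proteasome were not analysed here.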

Additional observations from a re-analysis of the deposited data

Results flagged for a closer look

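The difference between the lines changed with heat for 13804 genes in the test of the interaction, and for 63 of 80 genes examined by name. The values here are the difference with heat minus that without, in log2, with cytTC221 over cytT248. Among the leading higher genes the change was 2.62 for GNAT21, 1.00 for glu2, 1.36 for GLK52, 1.09 for HMGR, 1.25 for GH3, 0.46 for ABI14, 1.17 for rpp2a-4, 1.21 for pac1, 1.24 for gst41, 0.86 for ark and 0.59 for gst42, while RR10 and vp14 (0.58, adjusted p = 0.0347) were not called in this test. Among the leading lower genes it was −2.41 for mbd111, −1.76 for mir2, −1.65 for ysl11, −1.33 for chiB, −1.39 for cyclin4, −1.11 for TIFY28, −0.85 for chn1, −1.36 for CPK39, −1.12 for CPK39 and −1.53 for psiP. In these called genes the gap was narrower, absent or of the opposite sign without heat. Of the leading lower genes, geb1 (−0.31, adjusted p = 0.083) and rpl19 (0.33, adjusted p = 0.0178) were not called in this test.

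For chaperones and heat stress factors the change was −0.67 for hsp18f, −0.62 for hsp18c, 1.29 for CHL-CPN10, −0.45 for hsp101, 1.23 for HSP90-1, −0.94 for Hsf26, −0.30 for Hsf05, −0.28 for Hsf03 and 0.34 for Hsf17. For mitochondrial membrane and antioxidant genes it was 0.87 for Aox, 0.59 for ANT1, 0.77 for phb2, 0.61 for phb1, −1.21 for dhar4 and 0.98 for sod3, and for photosynthesis and carotenoid genes −0.49 for lhcb6, −0.70 for psaN, −0.72 for cab-m1, −0.51 for rca1 and 1.22 for PSY1. In CHL-CPN10, HSP90-1 and PSY1 the difference turned its sign with heat.

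For genes encoded in the mitochondrion the change was −0.42 for nad4, −0.94 for rps12, −0.63 for atp4, −0.72 for rps7 and −0.80 for orf99-d, the unstressed difference being positive in each. Ribosomal and WRKY genes changed by 0.80 for rps21b, 0.70 for rps4, 0.99 for WRKY29 and 0.68 for WRKY67. In the lipoxygenase and jasmonate list the change was −1.02 for lox10 and −0.48 for opr2. For auxin, sucrose and cell cycle genes it was 0.92 for AUX15, 0.70 for Yucca7, −1.05 for IVR1, 0.27 for sh1 and 1.12 for cycD2. The genes detected in only 1 heated line changed by 0.57 for orc2, −0.64 for MYBR47, 0.67 for CNR09, 0.61 for MYB34, 0.56 for ts2 and 1.39 for BIF4. The positive value of orc2, lower in both conditions, means a narrower gap with heat.

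An array stood far from the 3 others of its group in 6 of 160 groups of 4 examined, and chance does so in about 1 in 20 groups. In heated cytTC221 these were cyclin4 on replicate 3 (7.88 against 7.77 to 7.79), cp29 on replicate 2 (10.70 against 11.35 to 11.40), sh1 on replicate 3 (12.35 against 12.39) and atp4 on replicate 1 (12.32 against 12.12 to 12.15). In heated cytT248 they were HSP90-1 on replicate 2 (13.42 against 13.75 to 13.78) and cycD2 on replicate 2 (7.64 against 8.85 to 8.94).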

How the results depend on the processing

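The direction of every called gene examined by name held under every alternative run, but the counts depended on how arrays were scaled and which signal was read. Scaling to the 75th percentile gave 4754 genes higher and 335 over 2-fold higher, centring on the median gave 8620 higher and 7825 lower, and the scanner software's processed signal gave 1947 genes over 2-fold higher and 3904 lower. With only the genes matched to RefSeq in the adjustment, chosen after seeing the data, there were 4289 higher and 1831 lower, 205 and 118 over 2-fold (36.5% lower), 4808 with a changed difference, 1632 called between the unstressed lines and 577 called in both conditions in the same direction, since fewer genes were tested. Leaving out an array at a time gave 7387 to 7890 higher, 8429 to 9071 lower, 474 to 533 and 1357 to 1563 over 2-fold, and 12599 to 13655 with a changed difference.

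With the replicate number as a block, fitted on the 8 heated arrays, 6860 genes were higher and 8166 lower, 486 and 1375 of them over 2-fold. Of 133 called named genes 11 lost their call in that fit, namely Hsf03, Hsf17, cp29, TIFY17, ccmb, cycD2 (adjusted p = 0.0421), gigz1a (0.0671), PYL10 (0.0371), sig1 (0.0243), pdi8 (0.0184) and derlin1 (0.0169). All of these were called with the slide as a block in the fit of 24 arrays (where ANAC010 alone was lost, adjusted p = 0.0155), and Hsf03, cp29 and cycD2 were already lost on the 8 arrays without a block (adjusted p = 0.0157, 0.0139 and 0.0291). Over all alternatives 1618 values of named genes kept their side of the threshold, 39 lost it and 2 gained it, and 1435 counts of list members stayed within 1.5 times their value while 161 did not. The hsp70-4 call was lost without cytTC221 array 2 or 3 or cytT248 array 1 or 2 (adjusted p = 0.0104 to 0.0123), under 75th percentile scaling (0.0186) and with its brightest probe alone (0.51), and hsp18c, phb1 and orf99-d were not called on the processed signal (adjusted p = 0.072, 0.0556 and 0.0226). The causes were not tested. Genes near the background are limited by detection, and their differences are approximate bounds.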

Other observations

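Some genes over 2-fold apart between the heated lines lay close together in a few places of the genome, with other genes between them. Of the genes matched to RefSeq, 11798 could be ordered along the chromosomes, and in windows of 25 neighbouring genes the median number over 2-fold was 0 and the highest 10, with 2.61% of all these genes over 2-fold. The fullest stretch held 10 such genes of 50, with 6 higher and 4 lower in heated cytTC221, among them rpl19, and without heat 5 of the 10 were called in the same direction and 3 in the opposite one. Heated TC243 was nearer to cytT248 for 1 of these 10 genes. A stretch of 44 genes around mir2 held 7, with 1 higher and 6 lower, all 7 called alike without heat, and heated TC243 was nearer to cytT248 for all 7. Around GNAT21 a stretch of 46 genes held 6, all higher, of which 4 were also higher without heat. The 2 other stretches held 5 genes each, the first with all 5 higher, of which 1 was called without heat, in the opposite direction. These stretches were picked by their counts and were not tested.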
